A study of Mus musculus with 12 samples.

Results

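Liver RNA of mice with nonalcoholic steatohepatitis (NASH) that received CDDO-Me was compared with liver RNA of healthy control mice across all measured genes. The comparison takes in 8 of the 12 libraries of the series. All 12 came from wild-type C57BL/6J mice. The 4 control libraries are labelled as control livers with vehicle, and the labels do not state their diet. The 4 CDDO-Me libraries came from livers labelled NASH (CDAHFD-treated), with CDDO-Me given at 10 mg/kg by mouth for 8 weeks. The other 4 libraries, from CDAHFD-fed mice with vehicle (NASH vehicle), were used to tell whether a gene that differed from control under treatment also differed without it. Diet and drug therefore changed together between control and CDDO-Me livers, and age and sex are not in the labels.

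CDAHFD is the usual short name for a choline-deficient, amino acid-defined, high-fat diet. Without choline the hepatocyte makes too little phosphatidylcholine to export fat as lipoprotein, and fat storage, inflammation and fibrosis follow. CDDO-Me (bardoxolone methyl) is a synthetic triterpenoid that binds KEAP1, the protein that sends the transcription factor NRF2 (encoded by Nfe2l2) to degradation. Free NRF2 raises genes for glutathione synthesis, conjugation, quinone and carbonyl reduction, NADPH supply, iron handling and export pumps.

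Each library held between 28161057 and 33852338 gene reads on 41325 listed genes, and 16456 passed the filter on low counts. Albumin (Alb), the main secreted protein of hepatocytes, was the check of the tissue. It was read at 59875, 66902, 53899 and 59071 CPM (read counts scaled to library size) in control livers 1 to 4 and at 26224, 37955, 31781 and 24414 CPM in CDDO-Me livers 1 to 4. CDDO-Me livers had more genes detected than control livers (20442 to 21784 against 18849 to 19812) and a larger share of reads in introns (4.50 to 6.31% against 3.06 to 4.14%). On the first principal component (65.6% of the variance of log2 CPM) control livers lay at -128.62 to -78.92 and CDDO-Me livers at 21.72 to 67.83, with CDDO-Me 1 and 4 further out than CDDO-Me 2 and 3. Control 3 stood apart on the third component, at 77.69, and read smooth muscle genes far above the other control livers. The labels call the libraries of a group replicates without naming the animals, so p-values measure the spread between these libraries. In bulk liver, fewer cells of a type and less RNA per cell cannot be told apart.

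Most genes that differed from control in NASH vehicle livers also differed, in the same direction, in CDDO-Me livers: 9819 genes were called in the former (59.7%, with 29.6% higher and 30.0% lower), and 3682 stayed higher and 3398 stayed lower in the latter. A smaller set, given below as newly different, was not called in NASH vehicle. In edgeR's quasi-likelihood test (adjusted p under 0.05, Benjamini-Hochberg), 4317 genes were higher in CDDO-Me than in control livers (26.2% of those tested) and 3881 were lower (23.6%). Of these, 2851 were at least 2-fold higher and 841 at least 2-fold lower. CPM of the 2 groups did not overlap for 7195 genes (43.7%). CPM and tests use TMM factors (trimmed mean of M-values), which scale libraries on genes of moderate change. The split between higher and lower rests on this scaling. With library totals in its place, 8685 genes were higher and 1123 lower, and with limma-trend on log2(TPM + 1), from the deposited TPM (reads scaled to transcript length and depth), 8845 were higher and 812 lower. The median log2 fold change of all tested genes moved from 0.03 to 0.51 and 0.37. Library totals change the scaling alone, while the TPM fit changes scaling and test together. With library totals the medians of the 44 gene lists used below moved up by 0.42 to 0.50, and relative to all genes by -0.05 to 0.03. Genes and lists near control therefore change their call with it, and both values are given for many of them. The lists were chosen with earlier results of these data known. Counts of list members stand beside the shares over all tested genes, 26.2% higher and 23.6% lower.

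The genes were sorted by what NASH vehicle livers did against the same 4 control libraries. Because both comparisons use these controls, values are set side by side and no likeness between them is tested. The 3682 genes that stayed higher (22.4% of those tested) had a median log2 fold change of 1.59, against 1.97 in NASH vehicle livers. The direct test between CDDO-Me and NASH vehicle called 1545 genes higher (9.39%) and 1191 lower (7.24%). By it, 634 of them had moved toward control, 137 had moved further away and 2911 were not called. The 3398 genes that stayed lower (20.6%) had medians of -0.59 and -0.73. Of these, 419 had moved toward control, 110 further away and 2869 were not called. A newly different gene had to be called against control under CDDO-Me, not called in NASH vehicle, and called between the 2. 266 genes were newly higher (1.62%) and 120 newly lower (0.729%). 90 genes lay on the other side of control (0.547%): 78 were lower in NASH vehicle and higher under CDDO-Me, and 12 the reverse. 828 genes were no longer different from control and had moved toward it (5.03%), of which 262 had been higher and 566 lower. These small classes rest on the TMM scaling: with library totals the same class held 58 of the 266 newly higher genes, 16 of the 120 newly lower, 10 of the 90 on the other side and 152 of the 828 no longer different.

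**Figure D1:**
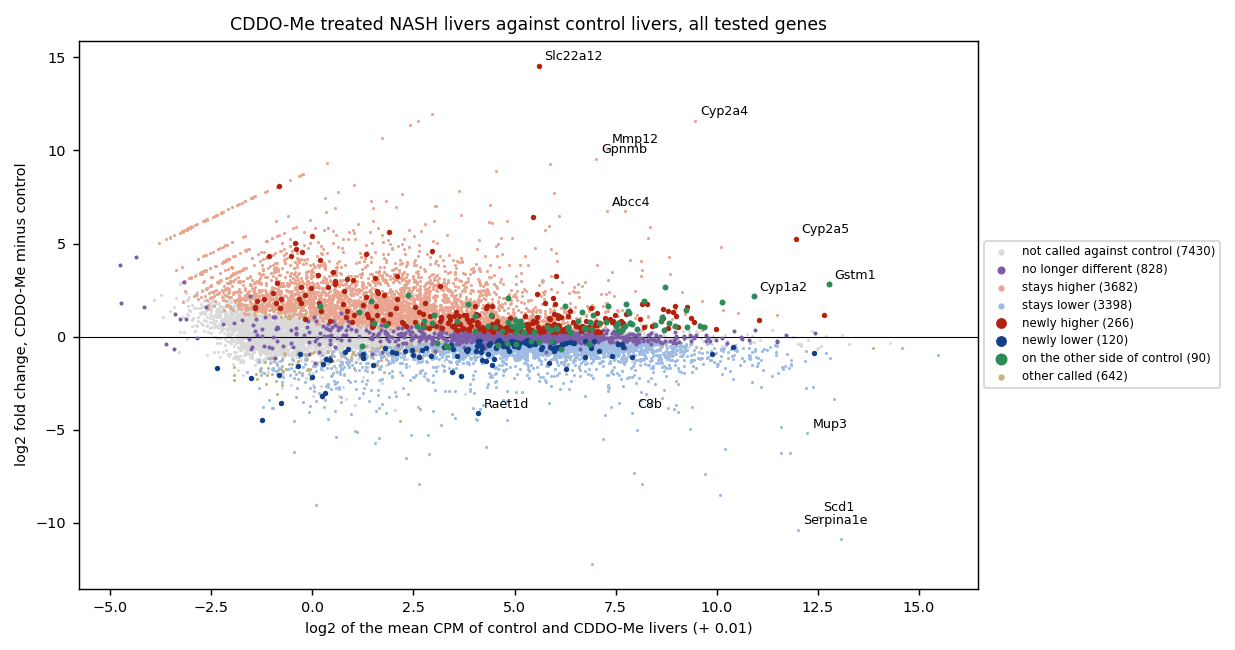
Each dot is 1 of the tested genes. The horizontal axis is the log2 mean CPM over the 8 livers and the vertical axis the log2 fold change of CDDO-Me against control. Colours give the gene classes with their numbers of genes. Newly higher genes (266) and 78 of the 90 genes on the other side of control lie above 0, up to high expression, Cyp2a5 and Gstm1 among the highest. The height of genes with few control reads, such as Slc22a12, depends on the fit's prior count.

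NRF2 target genes were higher in CDDO-Me livers than in both other groups. Of 42 members tested, 39 were higher than in control livers and 2, Me1 and Gstp1, were lower. The median log2 fold change was 1.5, against 0.03 over all tested genes, and the same 42 genes had a median of -0.01 in NASH vehicle against control. By class with TMM, 11 members were newly higher, 12 lay on the other side of control and 12 stayed higher and had moved further from control. This split rests on the scaling, and it was not counted for the list with library totals. Over all genes, 58 of 266 newly higher genes and 10 of 90 on the other side kept their class with library totals. The list names known targets of the drug's pathway, and its members were chosen with earlier results of these data known. With library totals 40 members were higher under CDDO-Me than in control and 2 lower, and with TPM Gstp1 was not called (-0.32, adjusted p = 0.096).

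RNA of the NRF2 and KEAP1 genes themselves differed little with TMM scaling. Nfe2l2 was read at 53.9, 48.7, 67 and 67.2 CPM in control livers and at 73, 71.1, 65 and 81.1 CPM in CDDO-Me livers. The groups overlap, and the log2 fold change of 0.29 ± 0.11 (SE) was just called (edgeR adjusted p = 0.045). The call was lost when the 8 libraries were fitted alone (adjusted p = 0.074) and when control 1, control 2 or CDDO-Me 1, 2 or 4 was left out (0.073 to 0.14). Other alternatives kept it, with library totals and TPM among them, and the lowest adjusted p over all alternatives was 0.0011. NASH vehicle livers averaged 95.5 CPM, above CDDO-Me livers (-0.40 for the difference, adjusted p = 0.029). Keap1 stood at 81.3, 88, 86.8 and 84.8 CPM in control and 73.7, 86.8, 82.6 and 65.3 CPM in CDDO-Me livers, overlapping and not called (-0.15 ± 0.09, adjusted p = 0.19). Its sign turned with the scaling, and Keap1 was called higher with library totals (0.31, adjusted p = 0.0018) and with TPM (0.43, adjusted p = 0.0011).

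The binding site of NRF2 with its small MAF partners, the antioxidant response element, has the core TGACNNNGC. The start-site windows of 4 members are printed to show where these letters fall. They run from 250 bases before to 50 bases after the start (RefSeq, GRCm38.p6), 5′ to 3′ on the strand of the gene, with the core or its reverse complement in capitals. The windows are chr14:118676882-118677181 for Abcc4 (minus strand), chr2:152105274-152105573 for Srxn1 (plus), chr3:122245307-122245606 for Gclm (plus) and chr9:86695865-86696164 for Me1 (minus). The Abcc4 window lies inside the gene as annotated here (chr14:118482692-118706219), at an internal start and not at its 5′ end.
Abcc4: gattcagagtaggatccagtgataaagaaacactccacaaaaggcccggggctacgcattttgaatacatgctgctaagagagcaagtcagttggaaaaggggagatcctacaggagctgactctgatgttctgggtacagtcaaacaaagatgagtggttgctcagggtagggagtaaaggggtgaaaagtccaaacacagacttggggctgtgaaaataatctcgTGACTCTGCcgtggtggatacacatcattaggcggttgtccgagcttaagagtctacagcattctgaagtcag
Srxn1: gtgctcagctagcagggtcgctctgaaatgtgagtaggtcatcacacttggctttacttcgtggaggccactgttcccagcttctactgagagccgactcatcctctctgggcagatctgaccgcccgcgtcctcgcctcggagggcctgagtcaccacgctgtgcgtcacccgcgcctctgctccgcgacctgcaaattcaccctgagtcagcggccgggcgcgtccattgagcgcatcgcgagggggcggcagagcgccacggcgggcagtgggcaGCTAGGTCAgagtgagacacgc
Gclm: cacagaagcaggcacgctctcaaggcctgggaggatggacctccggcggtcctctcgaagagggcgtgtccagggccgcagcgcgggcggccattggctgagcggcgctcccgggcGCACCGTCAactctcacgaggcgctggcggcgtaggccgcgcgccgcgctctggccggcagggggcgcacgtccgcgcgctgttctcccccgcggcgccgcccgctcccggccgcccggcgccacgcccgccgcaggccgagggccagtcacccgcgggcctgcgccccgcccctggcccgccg
Me1: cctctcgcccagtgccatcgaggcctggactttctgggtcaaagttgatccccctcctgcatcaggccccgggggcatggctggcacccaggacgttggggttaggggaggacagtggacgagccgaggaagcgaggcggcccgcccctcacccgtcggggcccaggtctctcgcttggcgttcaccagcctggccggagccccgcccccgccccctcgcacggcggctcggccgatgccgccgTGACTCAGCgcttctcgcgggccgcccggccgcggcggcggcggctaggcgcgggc
The core begins at base 228 of the Abcc4 window, at base 279 in Srxn1, at base 117 in Gclm and at base 245 in Me1. Searched on both strands, the core was present in 12.4% of 32851 such windows. Among genes with at least 1 window it was found for 11 of 37 NRF2 target list members (29.7%), for 30 of 202 newly higher genes (14.9%) and for 2018 of all 12095 tested genes (16.7%). Me1 carries the core and was lower than control, so a match is given only as a description of the letters.

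Glutathione synthesis and cystine uptake were higher. Slc7a11 (chr3:49892526-50443614), which imports cystine for glutathione, had 18 reads in all 4 control libraries and stood at 60.8, 77.8, 128 and 201 CPM in CDDO-Me livers, where CDDO-Me 4 was the highest. NASH vehicle livers averaged 7.39 CPM. The ratio of CDDO-Me to control was 631 (95% counting interval 399 to 1066), with an edgeR adjusted p = 3.8e-07. Gclc (chr9:77754535-77794485), the catalytic subunit of glutamate-cysteine ligase, which makes the glutathione precursor, was read at 466, 519, 429 and 522 CPM in control and 1262, 2042, 2155 and 1599 CPM in CDDO-Me livers. NASH vehicle livers lay below control with a mean of 269 CPM, and every CDDO-Me liver lay above every control liver (log2 fold change 1.87 ± 0.18, adjusted p = 2.6e-06). Its partner subunit Gclm rose less, from 279 to 428 mean CPM (log2 fold change 0.62), and only 37.2% of its reads were unique. Gsr, which returns oxidised glutathione to its reduced form, was newly higher at 1.19.

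Glutathione S-transferases, which attach glutathione to reactive compounds, held the most abundant risen member. Gstm1 (chr3:108012255-108017973) stood at 1406, 1723, 1929 and 1912 CPM in control and at 11144, 14273, 13561 and 10392 CPM in CDDO-Me livers. NASH vehicle livers averaged 1324 CPM, below control (log2 fold change -0.40, adjusted p = 0.044), whereas CDDO-Me livers were 7.08-fold above it with no overlap (2.82 ± 0.17, edgeR adjusted p = 6.1e-08). Raw reads of Gstm1 went the other way, 196583 in NASH vehicle and 168973 in control. The place of NASH vehicle below control therefore rests on the TMM scaling. Gstm3 rose from 54.3, 87.1, 78.4 and 82.9 CPM to 1988, 2466, 2205 and 1869 CPM, a log2 fold change of 4.82 ± 0.21, and was already higher in NASH vehicle (1.99). Gsta2 lay on the other side of control, with 75.5, 147, 150.1 and 119 CPM in control, a mean of 61.4 CPM in NASH vehicle and 403, 530, 572 and 368 CPM in CDDO-Me livers. Gstm4 and Gsta4 crossed control in the same way, at 1.76 and 1.38. Gstp1 moved otherwise: it stayed lower, at -0.92 under CDDO-Me against -2.50 in NASH vehicle.

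Quinone and carbonyl reductases were higher, Nqo1 and Cbr3 from low levels. Nqo1, the quinone reductase used as the standard marker of NRF2 activity, was read at 4.57, 5.99, 5.84 and 5.81 CPM in control and 106, 144, 139.6 and 106 CPM in CDDO-Me livers, a log2 fold change of 4.48 ± 0.14 (adjusted p = 1.8e-10). Cbr3 (chr16:93683215-93690990), a carbonyl reductase, stood at 2.00, 2.07, 9.5 and 1.92 CPM in control livers, control 3 being the highest, and at 336, 477, 554 and 316 CPM in CDDO-Me livers. The groups lay far apart (6.74 ± 0.53), and NASH vehicle livers averaged 15 CPM. Its neighbour and paralog Cbr1 went from 111, 102, 135 and 106 CPM to 638, 799, 896 and 576 CPM (2.68 ± 0.15), from a NASH vehicle mean of 78 CPM below control. For Cbr1 that place below control rests on the TMM scaling, as raw reads were 11534 in NASH vehicle and 11125 in control. Srxn1, which repairs over-oxidised peroxiredoxins, rose from 41.8, 49.8, 43.6 and 40.9 CPM to 576, 1029, 988 and 814 CPM (4.27 ± 0.18), and Txnrd1, thioredoxin reductase, was newly higher at 1.48.

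The oxidative pentose phosphate enzymes that supply NADPH were higher, with log2 fold changes of 1.82 for G6pdx and 2.39 for Pgd. Me1, malic enzyme, which supplies NADPH for fat synthesis, was lower. Me1 was read at 377, 370.3, 261 and 474 CPM in control and 75, 87.6, 86.8 and 78 CPM in CDDO-Me livers (-2.18 ± 0.16, adjusted p = 4e-07), above the NASH vehicle mean of 49.3 CPM. Among heme and iron genes Hmox1, heme oxygenase, went the other way from most list members when set against NASH vehicle. It stood at 8.83, 10.1, 9.8 and 10.6 CPM in control, 37.7, 53, 40.5 and 60.4 CPM in CDDO-Me and 91.6 mean CPM in NASH vehicle livers (-0.94 between the last 2, adjusted p = 0.0022). Blvrb, biliverdin reductase B, was newly higher, from 110, 187, 133 and 143 CPM to 402, 542, 554 and 396 CPM. Of the export pumps, Abcc4 (chr14:118482692-118706219) was read at 1.15, 3.18, 3.66 and 3.62 CPM in control and 228, 346, 328 and 331 CPM in CDDO-Me livers, against a NASH vehicle mean of 11.7 CPM. All 4 treated livers exceeded the highest control by more than the control range (6.74 ± 0.29, adjusted p = 1.2e-08). Abcc2 and Abcc3, pumps for conjugates, were newly higher at 1.00 and 1.08.

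**Figure D2:**
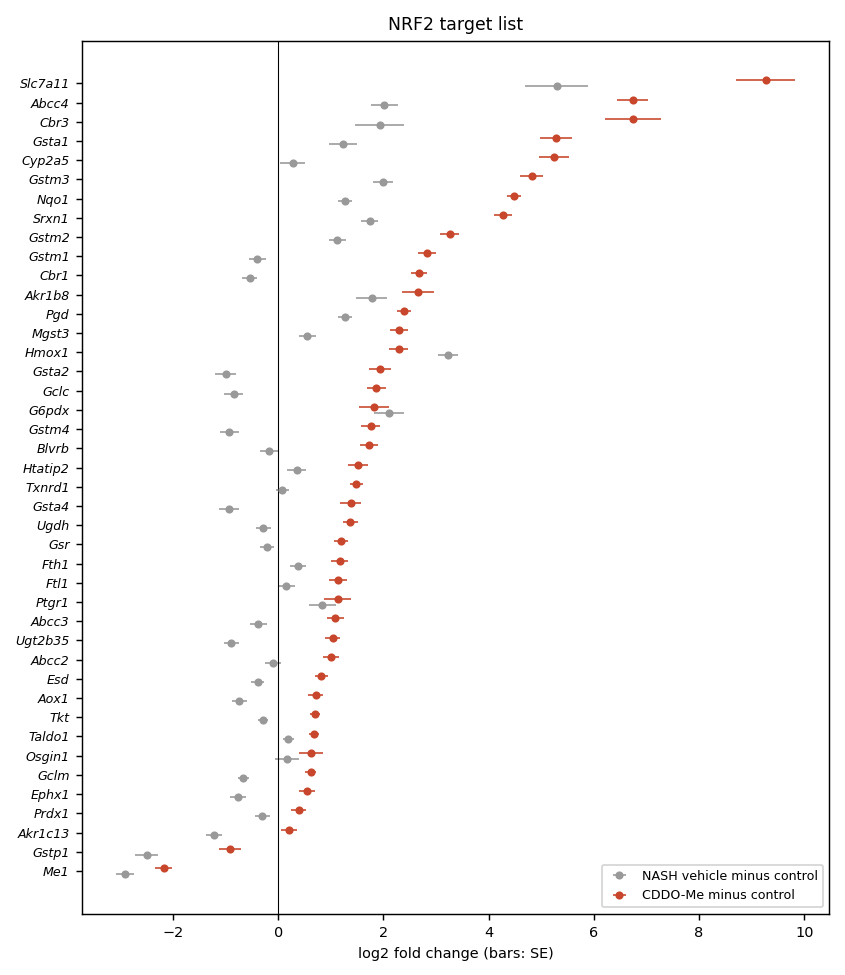
Log2 fold changes with SE bars of the 42 tested NRF2 target list members, in CDDO-Me livers (red) and NASH vehicle livers (grey) against the same control livers. 39 red points are called higher, while the grey points lie on both sides of 0.

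Cytochromes P450, the oxidising enzymes of drug and steroid metabolism, split sharply. Of 26 tested, 8 were higher and 15 lower than control, with a median of -0.99 (10, 15 and -0.52 with library totals). Cyp2a4 (chr7:26307169-26315088), a steroid hydroxylase, had the largest fitted rise among genes with at least 20 control reads. It was read at 0.422, 0.184, 0.814 and 0.313 CPM in control and 794, 1869, 1703 and 1233 CPM in CDDO-Me livers, with a NASH vehicle mean of 9.67 CPM. There was no overlap, and the log2 fold change was 11.60 ± 0.47 (edgeR adjusted p = 6.2e-09). Cyp2a5 (chr7:26835305-26843548), coumarin hydroxylase, was newly higher: 116, 274, 223 and 200.1 CPM in control, 6337, 8155, 9521 and 6864 CPM in CDDO-Me (5.25 ± 0.28) and a mean of 246 CPM in NASH vehicle livers. The pair are close copies, with 90.2% and 91.6% of their reads unique, so some reads may have been assigned to the wrong one.

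Members of the Cyp2b and Cyp1a families rose as well. Cyp2b9 rose from 0.0768, 0.461, 1.44 and 0.268 CPM to 127, 160.1, 122 and 88.5 CPM (7.73 ± 0.87). Cyp2b13 had 10 reads in all control libraries and 13.5, 46.4, 28 and 9.8 CPM in CDDO-Me livers, where CDDO-Me 2 was the highest, a ratio of 222 (counting interval 121 to 464). Cyp1a2, which metabolises caffeine and aromatic amines and is a classic target of the aryl hydrocarbon receptor, was read at 558, 756, 761 and 722 CPM in control and 2806, 3470.2, 3626 and 2779 CPM in CDDO-Me livers. In NASH vehicle livers it was lower than control at 314 mean CPM, so it crossed control (2.18 ± 0.15, adjusted p = 1.7e-07). Cyp1a1 crossed in the same way at a low level, from 0.768, 1.06, 1.37 and 1.34 CPM to 4.31, 4.88, 3.72 and 4.38 CPM.

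Conjugating enzymes, which attach sugar, sulfate or glutathione groups after the P450 step, were lower in 24 of 26 cases in NASH vehicle (median -1.17) and in 15 under CDDO-Me (median -0.64), where 5 were higher. Ugt2b35, a glucuronosyltransferase, lay on the other side of control, at 282, 306, 218 and 251 CPM in control, 142 mean CPM in NASH vehicle and 462, 548, 636 and 517 CPM in CDDO-Me livers (1.03 ± 0.14). Ugt2b5, of the same family, was no longer different, at -1.69 in NASH vehicle and 0.32 under CDDO-Me (0.78 and called with library totals). Sult2a8, a sulfotransferase, stayed lower, from 788, 917, 660.2 and 933 CPM to 56.4, 60.0, 61.4 and 51.7 CPM. With library totals 10 of the 26 were higher and 7 lower, and with TPM 12 and 6.

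The lower cytochromes were mostly of the Cyp2c, Cyp2d and Cyp3a families. Cyp2c29 stood at 1009.9, 1455, 1219.8 and 1311 CPM in control and 113, 90.5, 87.8 and 75.4 CPM in CDDO-Me livers (-3.77 ± 0.19). It lay above the NASH vehicle mean of 36.7 CPM, and the difference between the treated groups was called (1.32, adjusted p = 0.00028). Cyp2b10, the usual marker of the receptor CAR, stayed lower at -2.75 against -5.22 in NASH vehicle, opposite to its relatives Cyp2b9 and Cyp2b13. Cyp2e1 and Por, the electron donor of all these enzymes, were lower in NASH vehicle (-0.58 and -0.54) and no longer different under CDDO-Me (0.19 and 0.14), but called higher with library totals (0.67 and 0.61). Cyp3a11, the main drug-metabolising P450 of its family, stayed lower at -1.65.

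Genes that male mice express far above female mice had the lowest median of the 44 gene lists. Of 19 tested, 18 were lower, 0 higher, and the median log2 fold change was -3.87, beside -3.59 in NASH vehicle. Serpina1e (chr12:103946931-103958975), an alpha-1-antitrypsin gene, was read at 8422, 9580.2, 5793 and 9049 CPM in control and 4.7, 4.7, 8.02 and 7.13 CPM in CDDO-Me livers. NASH vehicle livers kept a mean of 278 CPM, so the fall against control (-10.39 ± 0.71, adjusted p = 5.3e-07) went further under treatment (-5.50 ± 0.58 against NASH vehicle). Mup3, a major urinary protein, stood at 9382, 9569, 9332 and 9379.9 CPM in control and 297, 219.9, 356 and 154 CPM in CDDO-Me livers (-5.20 ± 0.36). Selenbp2, a selenium-binding protein, dropped from 1413, 1559.7, 959 and 1058 CPM to 47.2, 34.2, 47.8 and 27.4 CPM. Slco1a1, an organic anion uptake carrier, dropped from 553, 551, 411 and 524 CPM to 14.4, 14.1, 20.6 and 13.4 CPM. Mup20, the darcin gene, was the member not called (0.06, adjusted p = 0.84, and 0.52 with library totals, adjusted p = 0.031).

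Female-type genes went in both directions. Of 17 tested, 8 were higher and 5 lower, median 0.79. The higher members included Cyp2a4, Cyp2b9 and Cyp2b13. The lower members included Cyp2c40, from 68.4, 24, 22.9 and 12.9 CPM to 1.22, 2.07, 1.13 and 1.4 CPM, and Cyp2c69, from 33.4, 7.93, 9.69 and 5.99 CPM to 0.292, 0.316, 0.62 and 0.229 CPM. The sex of the mice is not in the labels, and its part in these values was not tested. Control 1 was the highest control for Cyp2c40 and Cyp2c69.

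**Figure D3:**
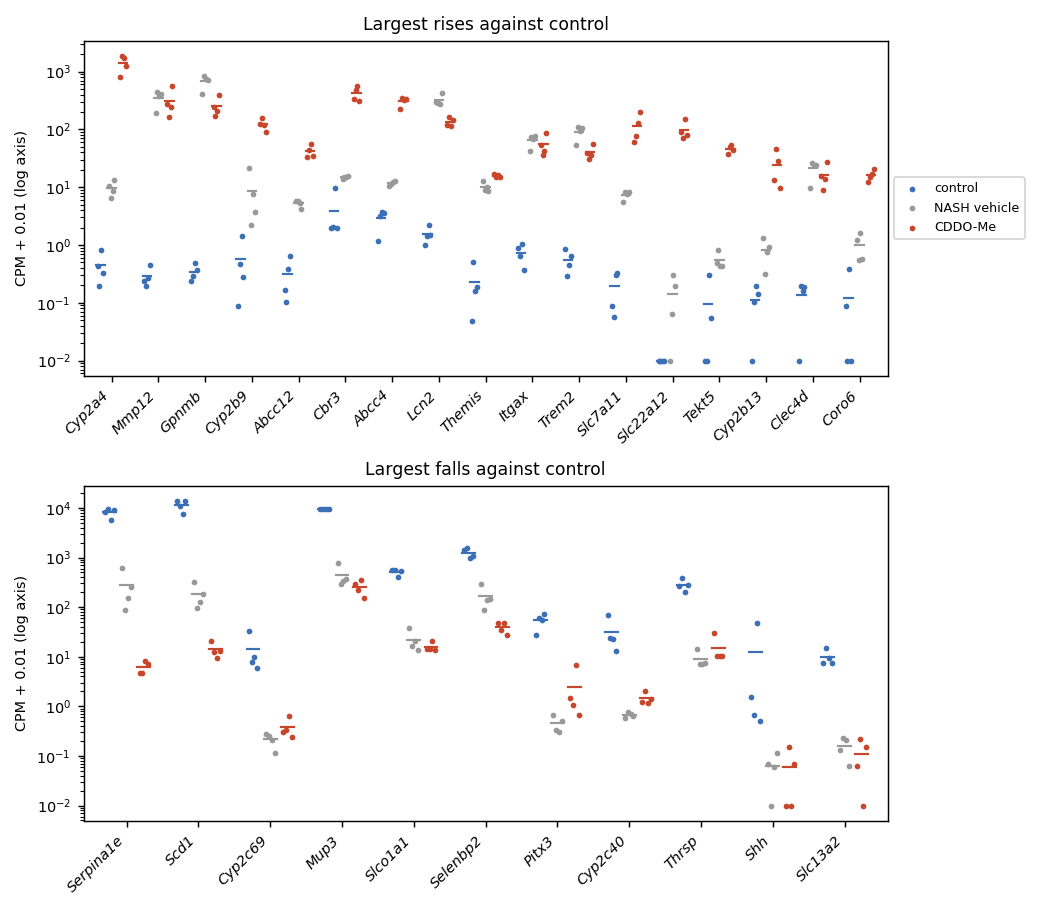
CPM (plus 0.01, log axis) in each of the 12 libraries for genes named in the text among the largest rises (top) and falls (bottom) against control. Dots are libraries and short lines group means. The 6 genes at the right of the upper panel and the 2 at the right of the lower panel had fewer than 20 reads in all in the lower group. In Shh 1 control library (control 3, 46.7 CPM) lies far above the other 3, at 0.492 to 1.54 CPM. Control and CDDO-Me livers do not overlap in any gene shown, because the genes were chosen on that condition.

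Macrophage genes stayed higher in CDDO-Me livers, though below NASH vehicle. All 16 tested macrophage markers were higher than in control livers, at a median log2 fold change of 2.69 beside 3.59 in NASH vehicle, and 12 of the 16 had moved toward control. Their summed level was 142.9 to 245.4 CPM in control, 996 to 1794 CPM in CDDO-Me and 1809 to 3392 CPM in NASH vehicle livers. Adgre1 (F4/80), the usual mouse macrophage marker, was read at 6.53, 5.25, 8.43 and 5.45 CPM in control, 20.9, 19.4, 21.7 and 23.8 CPM in CDDO-Me and 52.8, 70.6, 63.2 and 77.9 CPM in NASH vehicle livers. The 3 groups did not overlap (1.73 ± 0.15 against control, -1.63 ± 0.15 against NASH vehicle, adjusted p = 1.2e-05). Mpeg1, which encodes the pore-forming perforin-2, rose from 24.7, 26, 23 and 24.3 CPM to 192, 152, 177 and 234 CPM (2.95 ± 0.15). C1qb, a chain of the first complement component made by macrophages, rose from 17.3, 16.5, 23.4 and 14.8 CPM to 84.7, 78.4, 80.0 and 88.9 CPM (2.20 ± 0.17).

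Genes of lipid-associated macrophages, which gather around fat-laden hepatocytes, included 4 of the 12 largest rises: Mmp12, Gpnmb, Itgax and Trem2. The list was chosen with earlier results of these data known, so this is a description only. Of 16 tested, 15 were higher than control, with a median of 3.52 beside 4.22, and 7 had moved toward control. Mmp12 (chr9:7344381-7369499), macrophage elastase, was read at 0.23, 0.184, 0.259 and 0.447 CPM in control and 271, 165, 246 and 559.6 CPM in CDDO-Me livers. CDDO-Me 4 was the highest and CDDO-Me 2 the lowest, and the mean of 310.3 CPM stood beside 353 CPM in NASH vehicle, a difference that was not called (-0.19 ± 0.34, adjusted p = 0.76). Gpnmb (chr6:49036546-49070929), a glycoprotein of lipid-laden macrophages, stood at 0.23, 0.277, 0.481 and 0.358 CPM in control and 249, 172, 209 and 396 CPM in CDDO-Me livers. It remained 9.55 ± 0.42 above control on the log2 scale and lay below the NASH vehicle mean of 678 CPM (-1.40, adjusted p = 0.0034). Trem2, a lipid receptor of the same cells, rose from 0.844, 0.277, 0.444 and 0.626 CPM to 38.9, 30.5, 35.4 and 57 CPM, and Itgax (CD11c) from 0.883, 0.645, 1.04 and 0.358 CPM to 54.8, 36.7, 42.7 and 86.8 CPM. Clec4d, a lectin receptor of myeloid cells, had 12 control reads and 15.8, 8.98, 14.1 and 27.3 CPM in CDDO-Me livers, a ratio of 138 (counting interval 78.8 to 267).

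Resident Kupffer cell genes went in both directions, 5 of 13 higher and 5 lower, beside 26.2% and 23.6% of all tested genes. Clec4f, their defining lectin, was read at 39.7, 54.4, 51.3 and 35.7 CPM in control and 53.7, 89.6, 81.9 and 27.3 CPM in CDDO-Me livers and was not called (0.48 ± 0.56, adjusted p = 0.51). CDDO-Me 4 lay below all control livers, CDDO-Me 2 and 3 above all of them. Timd4, the marker of embryo-derived Kupffer cells, stayed lower at -3.42 and Cd163 at -2.13. Marco, a scavenger receptor, was higher at 3.35, and so was Cd5l, a macrophage survival factor, from 24.6, 34.6, 32.1 and 23.6 CPM to 127, 179, 189 and 107 CPM. Slc40a1, the iron exporter ferroportin, was newly higher, from 98.2, 118, 103 and 127 CPM to 183, 242, 231 and 210.2 CPM with a NASH vehicle mean of 109 CPM.

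Several recruitment signals remained up. Of 23 monocyte and macrophage chemokines and their receptors, Ccl8 and Ccl12 did not pass the filter on low counts. Among the 21 tested, 18 were higher than control and 0 lower, with a median of 2.85 beside 3.58 in NASH vehicle. Members near 0 in control could pass only through the diseased groups, so this share is not read as a result. Ccl2, the main monocyte attractant, stood at 0.384, 0.184, 0.37 and 0.179 CPM in control and 7.95, 9.47, 7.98 and 8.19 CPM in CDDO-Me livers (4.86 ± 0.25, adjusted p = 2e-08), with 7.17 mean CPM in NASH vehicle. Only 40.5% of its reads were unique. Its receptor Ccr2 rose from 1.31, 0.599, 1.33 and 0.536 CPM to 19.4, 9.61, 10.2 and 23.9 CPM, highest in CDDO-Me 1 and 4. Neither was called between CDDO-Me and NASH vehicle (0.23 and -0.45, adjusted p = 0.46 and 0.35), which does not show that they are equal. Csf1, the macrophage growth factor, rose from 10.7, 9.03, 8.58 and 6.88 CPM to 27.9, 26.5, 25.9 and 33.3 CPM, and Cxcl14 from 2.8, 2.21, 1.18 and 1.79 CPM to 12.6, 11.4, 8.79 and 14 CPM.

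Among 23 cytokines and NF-kB feedback genes, Il6 and Il10 did not pass the filter on low counts. Of the 21 tested, 15 were higher and 1, Il18, was lower, median 1.68 beside 2.26. Here too, members near 0 in control could pass only through the diseased groups, so the share is not read as a result. Control 3 stood above the other controls for this list (mean log2 CPM 1.05 against 0.35 to 0.49), and without control 3 and CDDO-Me 4 the median was 2.57. Tnf was higher at 4.21. Il1rn, the decoy ligand of the interleukin-1 receptor, rose from 0.537, 0.691, 1.48 and 0.268 CPM to 10.8, 10.5, 10.6 and 12.5 CPM. Il1b and Il12b had been higher in NASH vehicle (1.57 for Il1b) and were not called, with Il1b at 0.56 (adjusted p = 0.11). Without control 3 Il1b was called higher (0.83, adjusted p = 0.021), as it was with library totals (1.03), and Il12b was called without CDDO-Me 4 (adjusted p = 0.046) and with library totals (0.043). Lcn2 (chr2:32384633-32388252), lipocalin-2, an acute-phase protein that binds bacterial iron carriers, was among the largest rises, from 0.998, 1.43, 2.18 and 1.48 CPM to 121, 161, 113 and 146 CPM (6.47 ± 0.24), and below its NASH vehicle mean of 323 CPM.

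Other immune cell genes were present at lower levels. Dendritic cell genes were higher in 13 of 15 cases, median 2.41, for example the antigen-presenting chain H2-Ab1 from 22.4, 16.9, 24.8 and 20.3 CPM to 129, 97.5, 98.7 and 125 CPM. Of 13 neutrophil genes Ly6g, Retnlg, Camp, Ngp, Elane and Mpo did not pass the filter on low counts. Of the 7 tested, 5 were higher, all from little. Members near 0 in control could pass only through the diseased groups, so this share is not read as a result. S100a9 stood at 0.537, 0.461, 0.148 and 0.268 CPM in control and 2.31, 2.77, 2.92 and 2.84 CPM in CDDO-Me livers. T and NK cell genes were higher in 12 of 18 and lower in 2, median 1.62 (15, 1 and 2.1 with library totals). Their summed levels overlapped, at 12.55 to 17.34 CPM in control and 14.06 to 16.81 CPM in CDDO-Me livers. NASH vehicle livers summed to 18.68 to 38.39 CPM. The sum includes Zap70, given below, which was lower. Themis, a T cell signalling adaptor outside that list, was one of the 12 largest rises. It stood at 0.0384, 0.507, 0.148 and 0.179 CPM in control and 16.9, 14.8, 16.3 and 15.2 CPM in CDDO-Me livers (6.22 ± 0.36). Which cells hold this Themis RNA was not tested. Cd3e, a chain of the T cell receptor complex, was not called (1.29, adjusted p = 0.065), but it was called higher without control 3 (1.87, adjusted p = 0.016), with DESeq2 (0.047) and with library totals (0.02); over all alternatives its adjusted p ranged from 0.016 to 0.21. Zap70, a T cell receptor kinase, went the other way, from 8.67, 12.6, 7.1 and 9.83 CPM to 1.28, 2.81, 3.1 and 2.03 CPM. Of 11 B and plasma cell genes 3 were higher, close to the background share of 26.2%, against 8 with library totals.

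Extracellular matrix genes stayed higher, below their NASH vehicle level. Of 34 tested, 29 were higher and 1, fibronectin (Fn1, -0.61), was lower. Fn1 was not called with library totals (-0.14, adjusted p = 0.38) or TPM (-0.01, 0.98), where 0 members were lower. The median was 1.63 beside 2.56 in NASH vehicle, and 18 had moved toward control. Col1a1, a chain of type I collagen and the main scar protein, was read at 23.1, 9.03, 39.5 and 22.3 CPM in control, 201, 131, 103 and 232 CPM in CDDO-Me and 362, 453, 453 and 506 CPM in NASH vehicle livers. Every CDDO-Me liver lay above every control, CDDO-Me 1 and 4 highest (2.82 ± 0.39 against control, -1.41 ± 0.37 against NASH vehicle, adjusted p = 0.022). Col6a3, a type VI collagen chain, rose from 14.3, 9.26, 9.87 and 16.9 CPM to 98.4, 60.3, 58.9 and 121 CPM, and Timp1, an inhibitor of matrix proteases, from 10 control reads to 5.71, 5.02, 3.97 and 9.51 CPM, a ratio of 60.4 (counting interval 32.7 to 127). Mmp13, the interstitial collagenase, was higher at 4.04.

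Stellate cells are the source of most of this matrix. Of 15 of their genes, 10 were higher and 1, Ecm1, was lower (-0.10 with library totals and 0.03 with TPM, not called), median 0.67. With library totals 13 were higher and 0 lower, median 1.13. Pdgfrb, the receptor that drives them, rose from 12.9, 8.34, 10.1 and 11.2 CPM to 43.8, 27.9, 32.1 and 47.6 CPM. Hgf, hepatocyte growth factor, had been higher in NASH vehicle (1.45) and was not called under CDDO-Me (0.57, adjusted p = 0.071). That rests on the setting: Hgf was called higher with DESeq2 (0.58, adjusted p = 0.047), without control 2 (0.71, 0.047), with library totals (1.06, 0.003) and with TPM (0.80, 0.0043). Acta2, smooth muscle actin and the marker of activated stellate cells, could not be read in the same way. It stood at 1.5, 2.12, 139 and 2.28 CPM in control and 10.4, 6.52, 2.99 and 42.3 CPM in CDDO-Me livers, so control 3 exceeded every treated liver (-1.22 ± 1.32, adjusted p = 0.47). Without control 3 the log2 fold change was 2.99 (adjusted p = 0.0087), and without control 3 and CDDO-Me 4 it was 1.77 (adjusted p = 0.0018). Lmod1, another smooth muscle gene, was at 0.115, 0.369, 14.9 and 0.492 CPM in control livers, with the same single library high.

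Bile duct genes shared that feature. Of 15 cholangiocyte genes 6 were higher and 1 lower, median 0.95, while without control 3 and CDDO-Me 4 the median was 2.55 with 11 higher. Spp1 (osteopontin), made by bile duct cells and macrophages, rose from 32.2, 26.8, 64.7 and 52.8 CPM to 669, 342, 329 and 757 CPM. Cldn4, a tight junction protein, had 19 reads in control, most of them in control 3, and 6.54, 6.59, 3.43 and 11.7 CPM in CDDO-Me livers, a ratio of 37.3 (counting interval 23.7 to 62.2). Shh (chr5:28456815-28467256), the hedgehog ligand, had the same library high, with 1.54, 0.645, 46.7 and 0.492 CPM in control livers and 0, 0.14, 0 and 0.0573 CPM under CDDO-Me. Its fitted log2 fold change was -7.92, and -4.13 without control 3. Its adjusted p was 0.0049, ranging from 0.0014 to 0.097 over the alternatives, and the call was lost with limma-voom (0.08) and TPM (0.097). Of 9 smooth muscle genes 0 were higher and 1 lower (4 and 1 without control 3 and CDDO-Me 4), and of 5 red blood cell genes 0 were higher and 1, Alas2, was lower.

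Cell cycle genes stayed higher. Of 28 tested, 25 were higher, with a median of 2.19 beside 2.63, and 2 had moved toward control. Mcm7, a helicase subunit, was just called lower (-0.26, adjusted p = 0.032). That call was lost under most alternatives, among them the fit of the 8 libraries (0.063), exon reads (0.061), the replicate block (0.056) and leaving out control 2, 3 or 4 or CDDO-Me 1, 3 or 4, and the value was 0.21 with library totals. Mki67, the Ki-67 proliferation marker, stood at 1.11, 1.2, 0.333 and 0.804 CPM in control and 16.9, 23.8, 10.2 and 17.2 CPM in CDDO-Me livers (4.31 ± 0.34), with a NASH vehicle mean of 19.9 CPM. Ccnb1, cyclin B1, rose from 0.307, 0.277, 0.148 and 0.447 CPM to 5.08, 9.12, 4.27 and 7.11 CPM and Birc5, survivin, from 0.729, 0.784, 0.37 and 0.536 CPM to 4.68, 9.15, 4.56 and 5.53 CPM. CDDO-Me 2 was the highest treated liver for all 3 genes, although it had the lowest summed macrophage level. Bulk RNA does not tie these genes to a cell type.

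Genes of fetal or injured liver were higher in 16 of 22 cases and lower in 1, median 1.60 beside 1.94. Anxa2, an annexin raised in injured epithelium, rose from 14.6, 12, 27.6 and 14.1 CPM to 136, 126, 103 and 149.9 CPM (2.91 ± 0.24). Afp, alpha-fetoprotein, rose from 1.88, 2.95, 1.66 and 1.7 CPM to 7.02, 7.26, 6.31 and 10.1 CPM, with 62.6% of its reads unique. Gdf15, a stress hormone, rose from 4.8, 9.45, 7.51 and 4.42 CPM to 20.1, 35.1, 42.3 and 32.4 CPM. H19, an imprinted fetal RNA, had been higher in NASH vehicle (4.58) and was not called (1.03, adjusted p = 0.19), though without control 3 it was (1.71, adjusted p = 0.049).

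Interferon-induced genes were higher by count but not by summed level. The sum was 702.5 to 862.8 CPM in control, 580.6 to 753.1 CPM in CDDO-Me and 872.2 to 1269 CPM in NASH vehicle livers. Of 23 tested, 12 were higher and 4 lower, with a median of 0.87 beside 1.86 (15, 2 and 1.33 with library totals), and 5 were no longer different, among them Mx2, Irf7, Isg15 and Ifit1. Irf7, the factor that amplifies the interferon response, stood at -0.10 beside 1.48 in NASH vehicle, and was called higher with TPM (0.51, adjusted p = 0.034). Isg15 and Ifit1 were called higher with library totals (0.87 and 1.23), Ifit1 also without control 3 (1.15, adjusted p = 0.0046) or CDDO-Me 3 (0.90, 0.046) and Isg15 without control 2 (0.57, 0.04). Oas1a, an antiviral enzyme, was still higher, at 2.15, 3.13, 2.11 and 1.97 CPM in control, 12.6, 6.77, 6.82 and 11.1 CPM in CDDO-Me and 28.4 mean CPM in NASH vehicle livers. Among 12 genes of MHC class I antigen presentation, 3 were higher and 3 lower, near the shares over all tested genes (26.2% and 23.6%), and Tap1, Tap2, Psmb8 and Psmb9, the peptide transporter and immunoproteasome subunits, were no longer different. With library totals 7 of these 12 were higher and 0 lower, and with TPM 11 and 0. Tap2, Psmb8 and Psmb9 were called higher with library totals (0.56, 0.55 and 0.53), and Tap1 with TPM (0.47).

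Hepatocyte function genes stayed lower. Of 19 hepatocyte marker genes 16 were lower and 0 higher, median -1.0 beside -1.14. With library totals 13 were lower and 2 higher, median -0.54. Their summed level was 119772 to 143090 CPM in control and 51443 to 76024 CPM in CDDO-Me livers, lowest in CDDO-Me 4 and 1, the livers with the most macrophage RNA. How much of the hepatocyte difference follows that share was not tested. Cps1, which starts the urea cycle, was read at 2831, 4086, 3489 and 3666 CPM in control and 939.7, 1299, 1010.2 and 808 CPM in CDDO-Me livers (-1.79 ± 0.25, adjusted p = 5.8e-05). Tdo2, which opens tryptophan breakdown, was an exception: -1.42 in NASH vehicle and -0.02 under CDDO-Me (0.44 with library totals), no longer different in the main test. Of 34 genes of amino acid breakdown and the urea cycle 27 were lower and 0 higher, median -1.08 (25, 1 and -0.63 with library totals), for example Asl, argininosuccinate lyase, from 531, 833, 773 and 671 CPM to 151, 197, 162 and 137 CPM.

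Fat synthesis genes were lower, and some went lower still under treatment. Of 20 tested, 16 were lower and 1, Lpin1, was higher, with a median of -1.38 beside -1.51 (14, 3 and -0.91 with library totals). Scd1 (chr19:44394451-44407709), the stearoyl-CoA desaturase that makes oleate, was read at 13797, 11131, 7559.5 and 13831 CPM in control and 21, 12.7, 9.62 and 12.8 CPM in CDDO-Me livers. NASH vehicle livers averaged 179.9 CPM, and CDDO-Me livers lay below both groups (-9.69 ± 0.50 against control, adjusted p = 3e-08, and -3.68 ± 0.39 against NASH vehicle, adjusted p = 5.6e-05). Srebf1, the transcription factor of the lipogenic program, dropped from 331, 334, 217 and 248 CPM to 48.9, 40.7, 38.1 and 39.2 CPM, below the NASH vehicle mean of 69.5 CPM (-0.74, adjusted p = 0.0072). Acly, which supplies cytosolic acetyl-CoA, dropped from 237, 318, 322 and 373 CPM to 90.8, 69.7, 66.1 and 69.3 CPM. Thrsp, a lipogenic cofactor, dropped from 265, 393, 204 and 274 CPM to 30.0, 10.2, 10.3 and 10.3 CPM, CDDO-Me 1 being the highest treated liver. Of 24 cholesterol synthesis and uptake genes 18 were lower and 0 higher, median -0.79. With library totals 11 were lower and 1 higher (median -0.30), and with TPM 9 and 1 (-0.20). In this list Tm7sf2, a sterol reductase, stood at 202, 206, 167 and 218 CPM in control and 74.8, 49, 55 and 56.1 CPM in CDDO-Me livers.

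Lipoprotein assembly genes, whose work choline shortage limits, were lower in 13 of 17 cases and higher in 2, median -0.79 beside -0.96. With library totals 9 were lower and 3 higher (median -0.33), and with TPM 7 and 4 (-0.20). Lipc, hepatic lipase, dropped from 196, 194, 216 and 207 CPM to 79.2, 82.9, 87.5 and 60.1 CPM. Apoa4, an apolipoprotein raised by fat load, went the other way, from 83.2, 76.6, 87.4 and 81 CPM to 493, 1456, 764 and 627 CPM (3.35 ± 0.34). Lipid droplet genes were split, 6 higher and 6 lower of 17, beside 26.2% and 23.6% of all tested genes. With library totals 8 were higher and 0 lower. Cidec, which fuses droplets, rose from 6.22, 5.81, 2.03 and 4.2 CPM to 27.3, 38.6, 37.1 and 35.2 CPM and Plin4, a droplet coat protein, from 7.02, 6.45, 5.4 and 8.04 CPM to 30.4, 24, 19 and 25.7 CPM. Of 27 fatty acid oxidation genes 10 were lower and 3 higher, with a median of -0.17 beside -0.65, and 7 of them, Acadm and Acadl for medium- and long-chain fatty acids among these, were no longer different. With library totals the median was 0.29 with 12 higher and 4 lower, so no direction is given for the list. Acadm and Acadl were then called higher (0.71 and 0.58). Acsl1, which activates fatty acids, was lower with TMM, library totals and TPM alike, from 1223, 1528, 1485 and 1336 CPM to 431, 656, 612 and 485 CPM. Ppargc1a, the coactivator that drives oxidative genes, was newly higher, from 7.29, 8.39, 6.18 and 8.00 CPM to 13.5, 11.5, 17.9 and 12.6 CPM.

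Hepatocyte transcription factors were lower in 11 of 22 cases and higher in 5, median -0.32, beside 23.6% and 26.2% of all tested genes. Cebpa dropped from 632, 723, 502 and 570.4 CPM to 335, 402, 368 and 263 CPM, and Hnf4a, which sets hepatocyte identity, was lower at -0.60. Hnf4a was not called with library totals (-0.13, adjusted p = 0.3) or TPM (0.99). Pparg, the receptor of fat storage, rose from 12.4, 13.9, 11.4 and 14.5 CPM to 24.3, 29.2, 32.3 and 20.8 CPM. With library totals 8 were higher and 4 lower, with TPM 8 and 2, and with TPM the call of Cebpa was lost (adjusted p = 0.087).

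Respiratory chain and proteasome genes were lower by small, even amounts that depend on the scaling. Of 27 respiratory chain genes 26 were lower, median -0.50 beside -0.99, and 15 of them had moved toward control, but with library totals the median was -0.04 with 2 lower, and with TPM it was 0.10 with 0 lower. Of 25 proteasome genes 24 were lower, median -0.63 beside -0.69. With library totals 9 were lower and 1 higher (median -0.16), and with TPM 0 were lower, at a median of -0.02. Of 25 cytosolic ribosome genes 0 were higher and 2 lower, against 21 higher with library totals.

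Bile acid genes went in both directions. Of 23 genes 13 were lower and 5 higher, median -0.58, beside 23.6% and 26.2% of all tested genes. With library totals 10 were lower and 9 higher, median -0.12, and with TPM 9 were lower and 9 higher, median 0.03. Cyp7a1, whose enzyme sets the pace of bile acid production, was read at 72.7, 38.5, 42.7 and 50.5 CPM in control and 4.01, 3.16, 4.52 and 6.96 CPM in CDDO-Me livers. It lay below the NASH vehicle mean of 18 CPM as well (-3.45 ± 0.39 against control, -1.94 ± 0.38 against NASH vehicle, adjusted p = 0.0057). Slc10a1 (NTCP), the uptake carrier for bile acids, dropped from 461, 379, 458 and 453 CPM to 74.1, 89.3, 84.3 and 63.4 CPM, and Nr1h4, the bile acid receptor FXR, from 147, 132, 135 and 177 CPM to 79.1, 73.2, 68 and 66.3 CPM. On the export side Abcc4, Abcc3, Abcc2, Abcb4 and Slc51b were higher, at 6.74, 1.08, 1.00, 0.96 and 2.60. Abcb11, the canalicular bile salt pump, was lower at -0.58, but not called with library totals (-0.12, adjusted p = 0.28) or TPM (0.03, 0.84). Slc10a2, the bile acid uptake carrier of bile duct cells, was newly lower, from 37.7, 43.8, 24.1 and 22.3 CPM to 14.9, 9.19, 11.1 and 9.8 CPM.

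Complement and coagulation genes stayed lower, and a few went much further down. Of 33 tested, 30 were lower and 0 higher, with a median of -0.95 beside -0.83, and 6 had moved further from control. With library totals 25 were lower and 3 higher, median -0.49. C8b, a chain of the membrane attack complex, was read at 539, 458, 415 and 391 CPM in control and 24.2, 24.3, 37.4 and 18.5 CPM in CDDO-Me livers, with 109.9 mean CPM in NASH vehicle (-4.11 ± 0.25 against control, -2.07 ± 0.23 against NASH vehicle, adjusted p = 9e-05). C6, of the same complex, dropped from 413, 402, 248 and 363 CPM to 33.5, 10.2, 39.3 and 35.8 CPM with CDDO-Me 2 lowest, and C8a from 1035, 917, 805 and 876 CPM to 159, 164, 184 and 106 CPM. C4b was newly lower at -0.95 beside -0.08, but not called with TPM (-0.34, adjusted p = 0.063). Factor VII (F7) dropped from 127, 151, 134 and 125 CPM to 44.8, 51.7, 51.4 and 37.1 CPM, not called between CDDO-Me and NASH vehicle (-0.15, adjusted p = 0.45).

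Choline, methionine and one-carbon genes, which handle the nutrients the diet restricts, were lower in 17 of 24 cases and higher in 2, median -0.99 beside -1.11 (13, 6 and -0.52 with library totals). Bhmt, which recycles homocysteine with betaine, was read at 3758, 4273, 4314 and 4900 CPM in control and 1115, 1106, 1009.9 and 733 CPM in CDDO-Me livers, below the NASH vehicle mean of 1849 CPM (-0.90, adjusted p = 0.013); 55.2% of its reads were unique. Gnmt, which consumes methyl groups, dropped from 1981, 2485, 2085 and 2332 CPM to 443, 579, 537 and 295 CPM. Mat2a, the extrahepatic form of methionine adenosyltransferase, rose from 57.4, 67.9, 78.2 and 72.9 CPM to 241, 219, 256 and 245 CPM, above its NASH vehicle mean of 159.9 CPM (0.59, adjusted p = 0.0015). Chka, choline kinase, was newly lower at -1.08. Gluconeogenesis and glycogen genes were lower in 12 of 18 cases and higher in 3 (7 and 5 with library totals, 6 and 5 with TPM), of which Ugp2 and Gbe1, enzymes of glycogen synthesis, had crossed control. For Gbe1 the crossing rests on the TMM scaling, with 15388 raw reads in NASH vehicle and 12889 in control. Ugp2 stood at 307, 348, 312 and 347 CPM in control, 207 mean CPM in NASH vehicle and 868, 932, 1016 and 729 CPM in CDDO-Me livers.

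**Figure D4:**
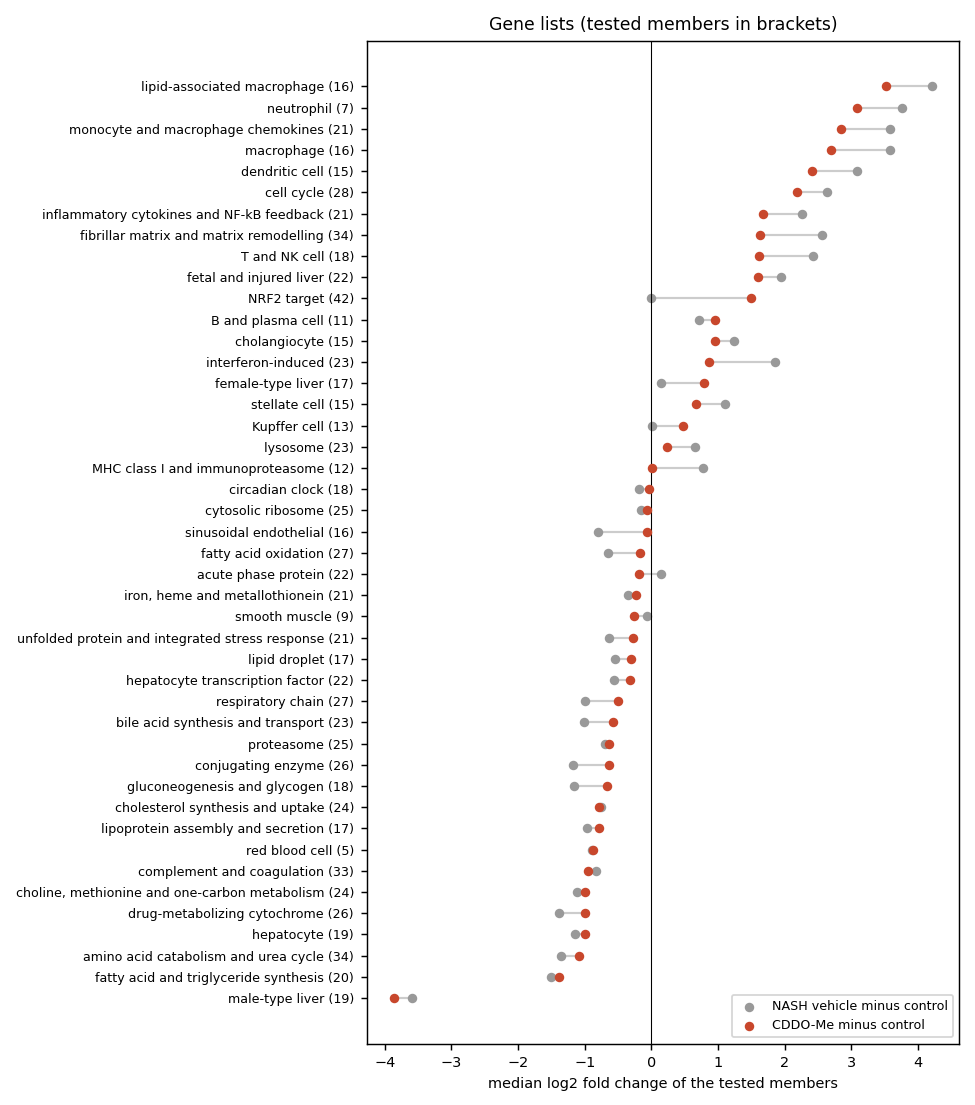
Median log2 fold change of the tested members of 44 gene lists, in CDDO-Me livers (red) and NASH vehicle livers (grey), both against the same control livers. Most red points lie between 0 and the grey point of their list. The NRF2 target list, at 1.5 beside -0.01, and the Kupffer cell, female-type and B cell lists lie further above 0 than their grey points.

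Genes newly higher under CDDO-Me included transporters and enzymes with little or no RNA in control liver. Slc22a12 (chr19:6535845-6543019), the urate transporter URAT1, had 0 reads in the 4 control libraries and stood at 89.1, 70.4, 149 and 79.1 CPM in CDDO-Me livers. NASH vehicle livers reached a mean of 0.134 CPM. Against a floor of 3 reads over the control group it was at least 3078-fold higher. It overlaps Nrxn2, 66.2% of its reads were unique, and the counting strand is not given in the sources used here. Maoa (chrX:16619698-16687818), monoamine oxidase A, was read at 13.5, 14.8, 10.6 and 11.6 CPM in control, 9.99 mean CPM in NASH vehicle and 85.1, 95, 139 and 153 CPM in CDDO-Me livers, higher in CDDO-Me 3 and 4 than in 1 and 2 (3.23 ± 0.19, adjusted p = 9.9e-08). Trim54, a muscle ubiquitin ligase, had 4 control reads and 1.01, 1.4, 1.2 and 2.06 CPM under CDDO-Me, a ratio of 34.6 (counting interval 13.3 to 128). Unc79, a subunit of a sodium leak channel, rose from 0, 0.0461, 0.592 and 0.223 CPM to 3.43, 6.17, 3.79 and 5.87 CPM, and Fam19a2, a secreted neuronal protein, from 0.499, 0.737, 0.185 and 0.983 CPM to 6.67, 4.98, 7.18 and 2.15 CPM.

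Some non-coding and low-level genes belong to the same class. Mirt2_1 rose from 0.154, 0.737, 0.518 and 1.07 CPM to 14.9, 13.8, 16.7 and 14.3 CPM, but it overlaps Spatc1. Gssos1, antisense to the glutathione synthetase gene Gss, rose from 0.154, 0.277, 0.222 and 0.268 CPM to 1.73, 3.37, 2.73 and 2.52 CPM, was not called on TPM, and its reads cannot be told apart from those of Gss without strand. Brinp3 had 6 control reads, a ratio of 21.2 (counting interval 9.53 to 58.5). Lyve1, a hyaluronan receptor of sinusoidal endothelium, was the newly higher gene of the sinusoidal endothelial list, at 12.2, 2.77, 7.73 and 8.31 CPM in control, 6.19 mean CPM in NASH vehicle and 20.5, 28.9, 23.6 and 25.7 CPM in CDDO-Me livers (1.67 ± 0.37, adjusted p = 0.0027).

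**Figure D5:**
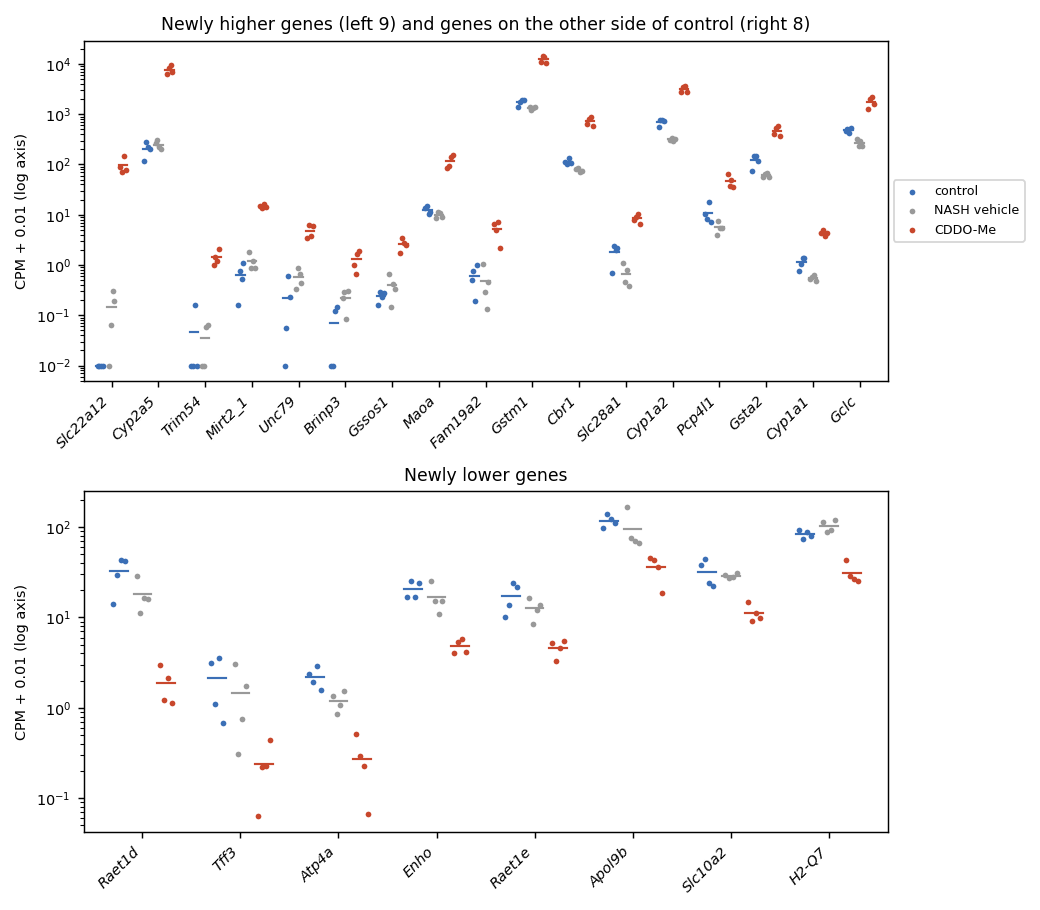
CPM (plus 0.01, log axis) in each library for genes named in the text: newly higher genes and genes on the other side of control (top) and newly lower genes (bottom). Dots are libraries and lines are group means. CDDO-Me livers lie apart from all libraries of both other groups in every gene shown except Tff3, where CDDO-Me 4 and 1 NASH vehicle library overlap. Separation from control was a condition for choosing the genes.

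Newly lower genes were fewer and smaller in change. Raet1d, a stress ligand of the NK cell receptor NKG2D, was read at 14.1, 29.9, 43.3 and 42 CPM in control and 2.95, 1.23, 2.11 and 1.12 CPM in CDDO-Me livers, with 18.1 mean CPM in NASH vehicle (-4.11 ± 0.47, adjusted p = 2.9e-05). Its overlapping neighbour Raet1e dropped from 10.0, 13.8, 23.8 and 21.9 CPM to 5.16, 3.3, 4.56 and 5.47 CPM, and only 67.2% and 50.8% of the reads of the pair were unique. H2-Q7, a non-classical MHC class I gene, dropped from 93.2, 73.6, 87.8 and 80.6 CPM to 43.3, 29, 26.3 and 25.3 CPM (-1.43 ± 0.17), whereas NASH vehicle livers averaged 104 CPM. Enho, the precursor of the metabolic hormone adropin, dropped from 16.9, 25.4, 17 and 24.2 CPM to 4.01, 5.33, 5.8 and 4.18 CPM with 16.7 mean CPM in NASH vehicle (-2.11 ± 0.25). Apol9b, an interferon-responsive apolipoprotein L, dropped from 97.6, 139, 124 and 112 CPM to 45.9, 42.7, 36.2 and 18.6 CPM. Tff3, a trefoil peptide of mucosa, and Atp4a, a proton pump subunit, were newly lower from levels of a few CPM, at -3.21 and -3.01.

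Of the other genes beyond control, Slc28a1, a nucleoside carrier, was read at 0.691, 2.4, 1.96 and 2.15 CPM in control, 0.667 mean CPM in NASH vehicle and 7.92, 9.15, 10.2 and 6.48 CPM in CDDO-Me livers. Pcp4l1, a calmodulin-binding peptide, stood at 10.3, 8.3, 17.9 and 7.33 CPM in control and 64.2, 36.7, 49 and 35.2 CPM in CDDO-Me livers, against a NASH vehicle mean of 5.57 CPM. Nr1i3, the receptor CAR, crossed from -0.90 to 0.58. Ifi27 crossed the other way, from 0.51 to -0.66, but its call against control was lost with library totals (-0.18, adjusted p = 0.4) and TPM (-0.10, 0.65).

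Several genes stayed higher and moved further from control without belonging to the lists above. Abcc12, an ATP-binding cassette transporter, was read at 0.154, 0.0922, 0.37 and 0.626 CPM in control, 5.22 mean CPM in NASH vehicle and 32.7, 44.4, 56.5 and 34.5 CPM in CDDO-Me livers (7.07 ± 0.35). Tekt5, a tektin of sperm tails, had 9 control reads and 37.7, 50.3, 53.4 and 44.4 CPM in CDDO-Me livers, a ratio of 493 (counting interval 260 to 1079), with 0.535 mean CPM in NASH vehicle. Coro6, a coronin, had 12 control reads and 12.3, 15.2, 17.1 and 20.8 CPM, a ratio of 132 (counting interval 75.2 to 255). Ces1h, a carboxylesterase, had 1 control read and 2.07, 3.61, 2.15 and 2.06 CPM, a ratio of 236 (counting interval 42.1 to 9351).

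Other genes stayed lower but had returned part of the way. Etnppl, which breaks down phosphoethanolamine, was read at 188, 286, 280.1 and 249 CPM in control, 29.1 mean CPM in NASH vehicle and 81.3, 171, 169 and 78.6 CPM in CDDO-Me livers (2.10 ± 0.34 against NASH vehicle, adjusted p = 0.0018). CDDO-Me 2 and 3 lay nearer control than CDDO-Me 1 and 4, and the call against control was lost without CDDO-Me 1, CDDO-Me 4 or control 2 (adjusted p = 0.057 to 0.072), and with library totals (0.092). Ugt2b1, a glucuronosyltransferase, stood at 706, 812, 532 and 718 CPM in control, 107 mean CPM in NASH vehicle and 378, 465, 509.9 and 305 CPM in CDDO-Me livers, and was not called against control with library totals (adjusted p = 0.12). Cnmd, chondromodulin, and Rd3, a guanylate cyclase regulator, returned in part from -4.54 and -5.53 to -1.82 and -3.53. On the higher side, Siglec1, a sialic acid receptor of macrophages, was one of those with the largest return, with 1.69, 3.23, 1.85 and 1.74 CPM in control, 5.87, 4.52, 4.92 and 4.3 CPM in CDDO-Me and 21.7 mean CPM in NASH vehicle livers (-2.14, adjusted p = 7.6e-06). Scube1, a secreted platelet and endothelial protein, and Ms4a7, a macrophage membrane protein, had also come part of the way, from 5.58 and 6.44 to 3.47 and 4.54.

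Some genes, Slc34a2 and Adam11 among them, stayed lower and dropped further without being in the lists of male-type or complement genes. Slc34a2, a phosphate carrier, dropped from 5.95, 2.9, 3.44 and 2.41 CPM to 0.266, 0.14, 0.146 and 0.229 CPM with 1.21 mean CPM in NASH vehicle. Adam11, a catalytically inactive membrane protein of the ADAM family, dropped from 20.4, 26.6, 45.8 and 24.2 CPM to 2.34, 1.26, 1.28 and 3.18 CPM. Slc13a2 and Pitx3 are named for the size of their fall against control, and no further drop under CDDO-Me is stated for them. Slc13a2, a citrate and succinate carrier, was near 0 in both diseased groups, with 7.48, 14.8, 9.58 and 7.46 CPM in control and 13 reads in all 4 CDDO-Me libraries. Pitx3, a homeobox factor, dropped from 28, 60.9, 53.9 and 72.8 CPM to 1.44, 1.05, 6.78 and 0.659 CPM, with CDDO-Me 3 the highest treated liver.

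Sinusoidal endothelial genes were lower in NASH vehicle and near control in CDDO-Me livers. In NASH vehicle their median was -0.80, and under CDDO-Me it was -0.07. Under CDDO-Me 3 of 16 were higher and 3 lower, beside 26.2% and 23.6% of all tested genes, and 5 were no longer different. The 5 were Kdr, the VEGF receptor, Oit3, Clec4g, Gpr182 and Pecam1: Kdr went from -1.63 to -0.42 and Oit3 from -1.59 to -0.42. For 3 of them this rests on the setting. Clec4g (-0.44) was called lower in the fit of the 8 libraries (adjusted p = 0.037), with limma-voom (0.042), with unique reads (0.029) and without CDDO-Me 2 (0.013) or NASH vehicle 3 (0.024). Gpr182 (-0.47) was called lower in the fit of the 8 libraries (0.024), with limma-voom (0.043) and without CDDO-Me 2 (0.035), NASH vehicle 3 (0.021) or control 2 (0.043), and Oit3 without CDDO-Me 2 (0.044). Pecam1 was called higher with library totals (0.78, 0.0053). Gata4, the factor that sets sinusoidal identity, was lower, from 28.4, 26.6, 19.7 and 24 CPM to 14.7, 16.9, 14.3 and 18.7 CPM, but not called with library totals (-0.12, adjusted p = 0.47). Stab1, a scavenger receptor shared with macrophages, stayed higher, from 32.9, 34.4, 41.9 and 38.4 CPM to 59.7, 71, 54.7 and 73.8 CPM. With library totals 7 of 16 were higher and 0 lower, so a direction against control is not given.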

How the data were processed

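Bulk RNA-seq of mouse liver was analysed in 12 libraries, 4 per group. The deposited table lists 41325 genes with 4 kinds of value per library. Total, unique and exon reads are raw counts deposited by the authors. TPM and RPKM values and the fractions of reads in exons and introns were deposited as well, and RPKM and fractions entered no test. The genome is GRCm38 per the submitters' processing notes, and names of an aligner, a counter or a strand setting are not given in these sources.

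Total gene reads of all 12 libraries were tested with edgeR 4.0.16 in R 4.3.3: filterByExpr (minimum count 10, total 15, large n 10) kept 16456 genes, TMM scaled the libraries, and glmQLFit and glmQLFTest (two-sided, prior count 0.125) with Benjamini-Hochberg adjustment over all tested genes gave calls at 0.05. Each group had 1 mean and there was no block. CPM are scaled with TMM, principal components use log2 CPM with a prior count of 2, and SE is the log2 fold change divided by the root of the F statistic. Ratios of group totals carry exact 95% intervals, with a floor of 3 reads over the group, and cover counting error only. Alternatives used DESeq2 1.42.0, limma 3.58.1 (voom, and trend on log2(TPM + 1)), other filters, reads and scalings, a replicate block, and each library left out. The fit was also run on simulated data, and no result above rests on that run.

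Genes named for size were called, did not overlap between groups, reached 1 mean CPM and had at least 50% unique reads: the 12 largest rises and falls, the 6 per direction with under 20 reads in the lower group, the 10 largest newly higher and lower, 6 per direction closer to or further from control, and 8 on the other side. Up to 4 members per list by lowest p, 14 key genes, and members of groups described one by one were added. The members and the 44 gene lists were chosen with earlier results of these data known. Some genes that the rule named are not reported here.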

Additional observations from a re-analysis of the deposited data

Results flagged for a closer look

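In groups of 4 livers, a library was set aside for a closer look where its gap to the nearest other value exceeded Dixon's 95% critical share of the group's range. Among 406 groups of 4 control or 4 CDDO-Me values, 29 passed, where chance gives about 1 in 20 (20.3). Control 3 was the high library in 10 of the 29. It read Acta2 at 139 CPM (other controls 1.5 to 2.28), Lmod1 at 14.9 CPM (0.115 to 0.492), Shh at 46.7 CPM (0.492 to 1.54), Cbr3 at 9.5 CPM (1.92 to 2.07), Anxa2 at 27.6 CPM (12 to 14.5), Ifit1 at 7.36 CPM (3.09 to 3.53), Mt2 at 3.51 CPM (0.537 to 0.691) and Cldn4 at 0.555 CPM (0 to 0.0922). In that library Tekt5 stood at 0.296 CPM (0 to 0.0447) and Trim54 at 0.148 CPM, where the other controls had 0 reads.

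Control 1 was high for Cyp2c69, at 33.4 CPM against 5.99 to 9.69 CPM, and for Ces1h, at 0.0384 CPM, which is its 1 read. It was low for Nqo1, at 4.57 CPM against 5.81 to 5.99 CPM, and for Acadl, at 210 CPM against 240 to 244 CPM. Control 2 was high for Siglec1 at 3.23 CPM (1.69 to 1.85), Oas1a at 3.13 CPM (1.97 to 2.15) and Afp at 2.95 CPM (1.66 to 1.88), and low for Slc10a1 at 379 CPM (453 to 461).

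Among CDDO-Me livers, CDDO-Me 1 was low for Abcc4, at 228 CPM against 328 to 346 CPM, and high for Thrsp at 30.0 CPM (10.2 to 10.3) and Acly at 90.8 CPM (66.1 to 69.6). CDDO-Me 2 was high for Ces1h at 3.61 CPM (2.06 to 2.15), Slc51b at 4.52 CPM (2.52 to 2.74) and Ccl2 at 9.47 CPM (7.95 to 8.19). CDDO-Me 3 was high for 5 genes: Pitx3 at 6.78 CPM (0.659 to 1.44), Slco1a1 at 20.6 CPM (13.4 to 14.4), Mup20 at 13756 CPM (6991 to 7666), Cyp3a11 at 1755 CPM (1409 to 1460) and Cnmd at 1.75 CPM (0.802 to 0.912). The cause of these single values was not tested.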

How the results depend on the processing

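Scaling moved the split between higher and lower genes, and a fold minimum lowered every count. With library totals 8685 genes were higher and 1123 lower than control, 7860 stayed higher and 813 stayed lower. With limma-trend on log2(TPM + 1) the counts were 8845, 812, 8101 and 549, and 54 genes lay on the other side of control. When a 1.5-fold minimum was tested, 2469 genes were higher, 928 lower, 2186 stayed higher, 752 stayed lower, 88 were newly higher, 18 newly lower, 96 no longer different and 11 on the other side. DESeq2 gave 184 newly lower genes, and 1412 genes were no longer different without control 3 and CDDO-Me 4. DESeq2 size factors, other filters, exon or unique reads, limma-voom and the fit of 8 libraries kept each count within 1.5 times.

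Leaving out each library in turn gave 3764 to 4710 higher and 3358 to 3890 lower genes, 3227 to 4089 that stayed higher and 2943 to 3392 that stayed lower. The newly higher numbered 185 to 271, the other side 61 to 100, the newly lower 64 to 130 and the no longer different 497 to 1238. Single libraries moved the last 2 counts by over 1.5 times: newly lower fell to 74, 64 and 78 without CDDO-Me 2, CDDO-Me 3 and NASH vehicle 4, and no longer different to 531, 507, 540 and 497 without CDDO-Me 2, CDDO-Me 3, NASH vehicle 3 and NASH vehicle 4. Libraries share only replicate numbers. Same-numbered libraries did not deviate together (r from -0.223 to 0.187, above 0.1 in 2 of 12 pairs), and with a replicate block 4085 genes were higher, 3637 lower, 3485 stayed higher, 3186 stayed lower, 237 were newly higher, 90 newly lower, 687 no longer different and 81 on the other side.

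Of the values of the genes named above under the alternatives, 4919 stayed called in the same direction or stayed uncalled. Values that stayed uncalled were counted whatever their sign. A further 72 lost the call, 54 gained one and 13 turned sign with a call on either side. With library totals the log2 fold change turned to 0.31 for Keap1, 0.21 for Mcm7 and 0.44 for Tdo2. With TPM it turned to 0.43 for Keap1, 0.03 for Abcb11 and Ecm1, 0.51 for Irf7, 0.28 for Mcm7, 0.47 for Tap1 and 0.56 for Tdo2. With each library left out, Acta2 ranged from -2.44 (without CDDO-Me 4) to 2.99 (without control 3) and Lmod1 from -2.30 to 2.63. Acta2 turned to 1.77 without control 3 and CDDO-Me 4. With 28161057 to 33852338 reads per library, counting error limits only genes of a few reads, whose ratios carry intervals.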

Other observations

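Circadian genes went in both directions in CDDO-Me livers, with 8 of 18 higher and 9 lower than control (median -0.03, and 0.44 with library totals). Arntl, the activator of the clock, was read at 37.8, 35.2, 37.2 and 42 CPM in control and 14.7, 19.7, 21 and 17.9 CPM in CDDO-Me livers (-1.05 ± 0.12, edgeR adjusted p = 7.4e-06). Cry1, a repressor of the same loop, was lower as well, at -1.65. Per1, a light- and stress-responsive repressor, stood at 4.76, 5.21, 7.25 and 9.52 CPM in control and 28.5, 20.3, 21.6 and 30.4 CPM in CDDO-Me livers, all 4 above every control. Nr1d1, which represses Arntl, was higher at 1.42, and Dbp, a clock output gene, at 2.71. Ciart, a further clock repressor, was newly higher at 2.63. The hour at which livers were taken is not in the labels, and its part in these values was not tested.

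Of 21 genes of iron, heme and metallothionein 8 were higher and 8 lower, beside 26.2% and 23.6% of all tested genes, median -0.23 (0.23 with library totals). The ferritin heavy chain Fth1, which stores iron, rose from 1662, 2010.2, 1741 and 1683 CPM to 3409, 4458, 4407 and 3638 CPM, beside 2303 mean CPM in NASH vehicle. Hamp, the hormone hepcidin that closes ferroportin, was lower at -1.69, and the metallothioneins Mt1 and Mt2, which bind zinc and copper, were higher at 2.98 and 4.04. Genes of the unfolded protein and integrated stress response were 6 higher and 5 lower of 21, near the shares over all tested genes of 26.2% and 23.6% (median -0.28, and 0.18 with library totals). Fgf21, a starvation and stress hormone, rose from 0.269, 0.277, 0.961 and 0.894 CPM to 19.8, 66.5, 42.8 and 41.5 CPM (6.13 ± 0.56), and Trib3, a stress-induced pseudokinase, from 3.07, 3.73, 5.36 and 5.9 CPM to 33, 45.6, 38.1 and 22.4 CPM. Hspa5 (BiP), the main chaperone of the endoplasmic reticulum, was lower at -0.78 (adjusted p = 0.028). That call was lost with the replicate block (0.063), without CDDO-Me 1 (0.062), CDDO-Me 4 (0.082), control 1 (-0.47, 0.11) or control 2 (0.061), with library totals (-0.32, 0.29) and with TPM (-0.10, 0.73). Of 23 lysosome genes 11 were higher and 3 lower, with a median of 0.23 beside 0.66 in NASH vehicle, and 9 of the called ones had moved toward control. With library totals 20 were higher and 0 lower (median 0.69), and with TPM 22 and 0 (1.0). Ctss, a macrophage cathepsin, stood at 16.2, 16.8, 21.3 and 13.9 CPM in control, 258, 163, 216 and 341 CPM in CDDO-Me and 536 mean CPM in NASH vehicle livers. Acute phase proteins were 7 higher and 8 lower of 22, to be read beside the same 26.2% and 23.6% (median -0.18, and 0.29 with library totals). Orm2, an acid glycoprotein, rose from 3.61, 5.95, 4.81 and 6.39 CPM to 62, 86.1, 73.2 and 80.9 CPM, while the fibrinogen chain Fgb dropped from 5720.1, 5849, 5019 and 5118 CPM to 1657, 1952, 1759.8 and 1285 CPM.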
